A study of Mus musculus with 38 samples.

Results

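The medial prefrontal cortex of 38 mice, profiled by bulk RNA sequencing, was examined for 9 genes of acetylcholine signalling: Colq, Ache, Chrm1, Chrm2, Chrm3, Chrna4, Chrna7, Chrnb2 and Lynx1. They were 9 of 57010 gene IDs in the count table. The set was named by gene, with earlier results of these data known. Measured values entered its selection in 1 stated respect, since Colq had been seen to be lower after stress in these libraries. The stress values of Colq are therefore given as a description from which nothing is inferred, while its genotype and interaction values and all values of the other 8 genes were tested.

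Mutant mice were SSTCre:γ2f/f, homozygous for a conditional γ2 allele on which Cre recombinase acts where the somatostatin promoter drives it. Control mice were SSTCre and so carried the same Cre driver. Both genotypes were exposed to 21 days of chronic variable stress (CVS) or left unstressed (NS), and tissue was taken 24 hours after the last stressor. The labels used here give no age. Males comprised 4 mutant CVS, 3 mutant NS, 6 control CVS and 5 control NS mice, and females comprised 5 mice in each of the same groups. Since Cre acted in one interneuron class, a change confined to those cells would be diluted in whole-tissue RNA.

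Acetylcholine reaches the prefrontal cortex from long-range axons of the basal forebrain and from a few local neurons, and tunes attention and arousal. It acts on muscarinic receptors, which couple to G proteins, and on nicotinic receptors, which are cation channels assembled from several subunits. Acetylcholinesterase ends the signal. It is held in place by anchors, among them the collagen-like tail protein ColQ, which ties it to extracellular matrix and is best known from the neuromuscular junction, and the membrane anchor PRiMA, the main one in brain.

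Total counts ranged from 17.6 M to 27.5 M per library (mean 21.1 ± 2.28 M, SD, n = 38). The 10 markers of cortical glutamatergic neurons summed to between 2601 and 3028 CPM (counts per 1000000 counts) in every library, whereas 7 markers of cholinergic neurons summed to between 3.99 and 9.10 CPM. Olfactory bulb markers summed to 33.2 to 44.0 CPM in 3 male libraries, mutant NS replicates 2 and 3 and control CVS replicate 1, and to at most 21.9 CPM in the other 35. The library labelled male mutant CVS replicate 1 carried mixed signs of its genotype in an earlier analysis of these data. The larger shifts without these libraries are given beside the values they concern.

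Levels per transcript length spanned a wide range among the 9 genes. RPKM divides CPM by kilobases of exon and permits comparison between genes. Lynx1, a membrane-tethered modulator that dampens nicotinic receptors, was highest. Its mean was 75.8 ± 7.21 RPKM in females and 81.0 ± 8.55 RPKM in males (SD, n = 20 and 18). Chrm1, the M1 receptor abundant on pyramidal neurons, followed at 37.2 ± 1.36 and 37.0 ± 2.23 RPKM in females and males. Chrm3, the M3 receptor, had 11.3 and 11.8 RPKM and Ache 11.1 and 11.8 RPKM in females and males. Chrm3 exceeded Ache in 14 of 20 female and 10 of 18 male libraries, so this pair was not separated by its spread.

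Chrnb2 and Chrna4, whose products combine into the main high-affinity nicotinic receptor of the brain, stood at 6.65 and 6.62 RPKM in females and 6.91 and 6.75 RPKM in males. The ratio of Chrnb2 to Chrna4 was 1.01 ± 0.0747 in females and 1.03 ± 0.114 in males, and Chrnb2 was the higher one in 12 of 20 and 10 of 18 libraries. Chrna7, which forms receptors of a single subunit type, had 2.28 RPKM in females and 2.16 RPKM in males. Chrm2, the M2 receptor that inhibits acetylcholine release in many axons, had 1.69 RPKM in females and 2.24 RPKM in males. Chrna7 was above Chrm2 in 19 of 20 female libraries, while Chrm2 was above Chrna7 in 11 of 18 male libraries. Colq was lowest, at 0.397 ± 0.154 RPKM in females and 0.435 ± 0.176 RPKM in males. The remaining neighbours in the order were separated in every library. Male and female animals may come from different cohorts, and no level was tested between the sexes.

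Among the 5 muscarinic receptors, Chrm1 supplied 57.2% of the summed RPKM in females and 55.8% in males. Chrm4, the M4 receptor and no member of the set, supplied 22.6% and 22.9%, Chrm3 17.4% and 17.8%, and Chrm2 2.60% and 3.39%. Chrm5 supplied 0.154% and 0.123%.

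**Figure D1:**
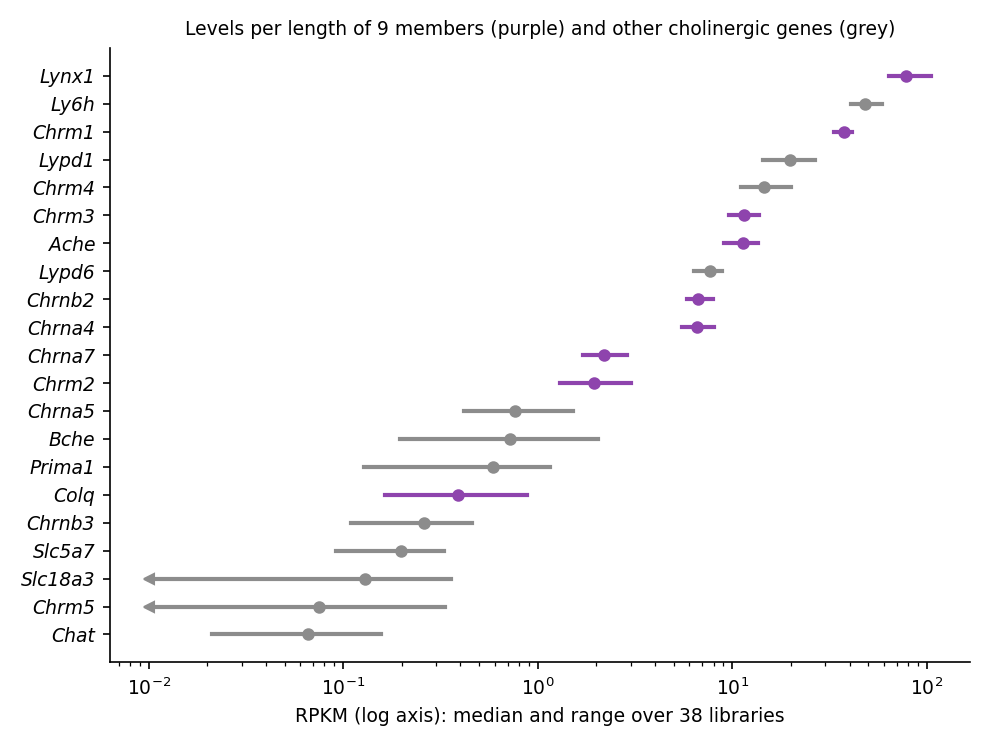
Levels per transcript length (RPKM, log axis) of the 9 genes in purple and of other cholinergic genes in grey; points are medians and lines the range over 38 libraries, and an arrowhead marks a lowest value of 0. Lynx1 and Chrm1 stand highest among the 9 genes, and Colq, with a median of 0.387 RPKM, lies well below its partner Ache at 11.3 RPKM.

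Colq encodes the collagenous tail of the asymmetric form of acetylcholinesterase. The gene lies on the minus strand of chromosome 14 (GRCm38, chr14:31523082-31591343). It was counted at 12 to 67 reads per library. In male mutants Colq stood at 0.837, 1.43, 1.56 and 1.59 CPM after CVS, against 1.40, 1.51 and 3.34 CPM in NS mice. These groups overlapped, and 1 NS library held the high value. In male controls the 6 CVS libraries had a lowest value of 0.731, a median of 1.27 and a highest of 1.60 CPM, against 1.62, 1.65, 2.24, 2.48 and 2.81 CPM in the 5 NS libraries. Every stressed male control was below every unstressed one, by a narrow margin. How many of all tested genes separate in this way was not counted, so nothing is read from it.

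In female mutants Colq stood at 0.805, 0.932, 1.35, 1.37 and 1.68 CPM after CVS, against 1.09, 1.50, 1.93, 2.19 and 3.06 CPM in NS mice. The groups overlapped, with 2 of 5 CVS libraries below every NS library. In female controls Colq stood at 0.621, 0.699, 1.07, 1.40 and 1.45 CPM after CVS, against 1.45, 1.70, 1.75, 2.06 and 2.11 CPM in NS mice. Here 4 of 5 CVS libraries were below every NS library, and the fifth was level with the lowest NS value.

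Means summarise the same pattern. Colq averaged 1.35 ± 0.351 CPM in male mutant CVS and 2.09 ± 1.09 CPM in male mutant NS mice, and 1.22 ± 0.299 CPM in male control CVS and 2.16 ± 0.522 CPM in male control NS mice (SD, n = 4, 3, 6 and 5). In females it averaged 1.23 ± 0.357 CPM in mutant CVS and 1.95 ± 0.747 CPM in mutant NS mice, and 1.05 ± 0.384 CPM in control CVS and 1.81 ± 0.273 CPM in control NS mice (SD, n = 5 each). All 20 stressed libraries (4, 6, 5 and 5) were below the NS mean of their own sex and genotype. The CVS to NS ratio of means was 0.649 in male mutants, 0.566 in male controls, 0.629 in female mutants and 0.578 in female controls.

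**Figure D2:**
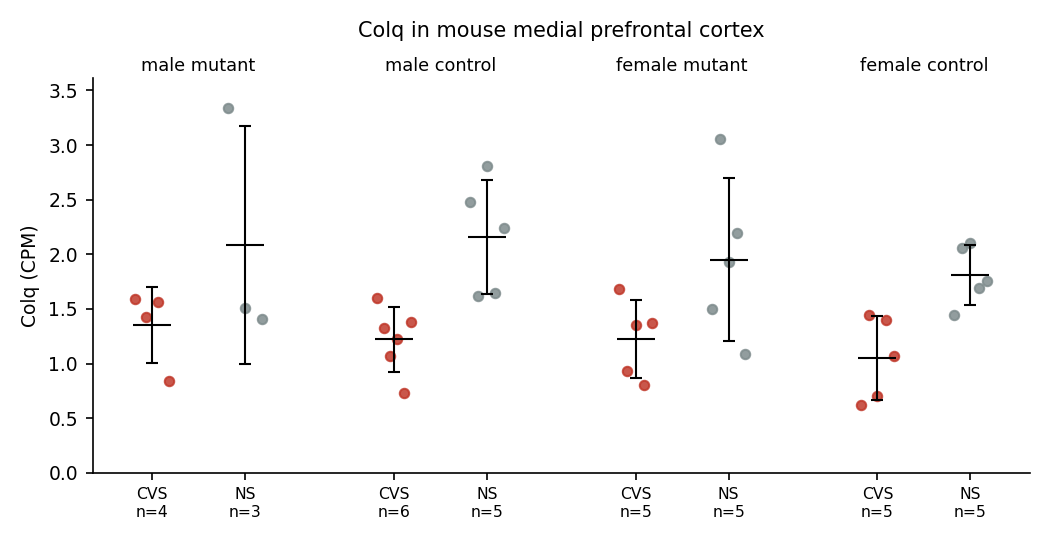
Colq level (CPM, linear axis from 0) in each library, with CVS in red and NS in grey for each sex and genotype; bars are the mean and SD. Stressed groups average 1.05 to 1.35 CPM and unstressed groups 1.81 to 2.16 CPM, and the groups overlap except in male controls. How many of all genes separate in this way was not counted.

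As log2 fold changes with their standard errors, CVS minus NS was −0.62 ± 0.308 in male mutants, −0.82 ± 0.245 in male controls, −0.67 ± 0.267 in female mutants and −0.76 ± 0.270 in female controls. Averaged over the 4 pairs it was −0.72 ± 0.139, a change of −39.1% after stress. In that pooled comparison edgeR's quasi-likelihood test called 3 of 17671 genes (0.0170%). Colq was among the 3, and nothing is read from this, since the gene was chosen on the same contrast. The male mutant value rests on 1 library: without male mutant NS replicate 1 it was −0.11, and without the 3 libraries rich in olfactory bulb markers, which leave that replicate as the lone male mutant NS library, it was −1.30. The pooled value was −0.91 without those 3 libraries.

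Low counts set part of the spread of Colq. The SD of its counts within a group lay closest to counting error in female control NS libraries, at 6.54 where counting alone gives 6.21, and farthest from it in male mutant NS libraries, at 22.0 against 6.46. In stressed female controls it was 11.3 against 4.78, and in stressed male controls 6.44 against 5.05. Its biological coefficient of variation was 0.232 in females and 0.235 in males, against common values of 0.0716 and 0.0831. Among the other 8 genes that coefficient lay between 0.0446 and 0.122 in the separate fits. The annotation of GRCm38 places 199 exonic bases of Colq (5.23%) under a predicted gene on the same strand that had 0 counts. The expressed neighbour Eaf1, an elongation factor partner 13223 bases away, had a pooled stress value of −0.016 (edgeR adjusted p 0.942).

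Log2 fold changes of markers of other cells leaned the same way as Colq for several cell types. Oligodendrocyte precursor markers were negative after stress in 4 of 4 in controls of each sex and in 3 of 4 in mutants of each sex. Oligodendrocyte markers were negative in 5 of 6 in male mutants, male controls and female controls, and in 2 of 6 in female mutants. The 3 types given next were those used as covariates, and none of their markers passed the test. Of 6 meningeal fibroblast markers, 5 were negative in the pooled stress comparison (median log2 fold change −0.25) and 3 in male mutants alone (median −0.023). Their summed level ranged from 32.2 to 103.1 CPM across the 4 CVS groups and from 40.8 to 97.3 CPM across the 4 NS groups, and none of the markers was at 0 throughout. All 6 astrocyte markers were negative when pooled (median −0.060), and 3 of 6 in female mutants alone (median −0.015). Their sums were 3932 to 4809 CPM in CVS and 3772 to 4954 CPM in NS groups. All 6 endothelial and pericyte markers were negative when pooled (median −0.11), while 4 of 6 were positive in female mutants alone (median 0.033). Their sums were higher in males, at 248 to 301 CPM in CVS and 261 to 346 CPM in NS groups. In females they were 116 to 198 CPM in CVS and 140 to 206 CPM in NS groups. Blood markers leaned the other way, with 5 of 5 positive (median 0.13), none past the test, and sums of 35.0 to 182.2 CPM in CVS and 35.2 to 178.3 CPM in NS groups. With the meningeal sum as a covariate the pooled Colq value was −0.58, with the astrocyte sum −0.67 and with the endothelial and pericyte sum −0.72. In bulk tissue, fewer cells of a type and less RNA per cell cannot be told apart.

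No difference of Colq by genotype passed the test. The pooled mutant minus control value was 0.095 ± 0.140 (edgeR adjusted p 0.887), with a 95% interval of −0.18 to 0.37. Without the 3 libraries rich in olfactory bulb markers it was 0.29 ± 0.150 (adjusted p 0.533). The pooled interaction of genotype with stress was 0.14 ± 0.279 (adjusted p 0.980, interval −0.41 to 0.69), and −0.15 without those 3 libraries. The stress effect differed between females and males by 0.0039 ± 0.290 (interval −0.56 to 0.57), given as a description, and by 0.39 ± 0.300 without those 3 libraries.

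Genes whose levels followed Colq most closely were ranked by the smaller of its Pearson correlations over 20 female and over 18 male libraries, among 12895 genes. Serbp1, an mRNA-binding protein, had r of 0.735 in females and 0.691 in males. Hnrnph2, a splicing regulator, had 0.684 and 0.727, and Cp, the copper-binding ceruloplasmin, 0.712 and 0.656. Zc3h15 had 0.651 and 0.677, and the actin-binding Cap2 0.641 and 0.656. Ache stood near the other end at rank 12331, with r of −0.56 in females and −0.51 in males. This was not particular to Ache, since Chrnb2 stood at rank 11921, with −0.40 and −0.50. Chrm1, Lynx1 and Chrna4 were also negative in both sexes, while Chrna7, Chrm3 and Chrm2 were positive in females and negative in males. Each coefficient mixed CVS and NS libraries, so the stress difference on which Colq was chosen enters it. Pooled stress values were −0.056 for Serbp1, −0.058 for Hnrnph2, −0.22 for Cp, −0.073 for Zc3h15 and −0.048 for Cap2. These had the sign of Colq, while Ache had 0.048, and none passed. Likeness within CVS or NS libraries alone was not tested. Libraries also share depth and tissue composition, and these coefficients are descriptions.

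Ache encodes acetylcholinesterase, the enzyme that ColQ anchors. It lies on chromosome 5 (GRCm38, chr5:137287519-137294466, plus strand). The stress values of Ache lay near 0. Ache averaged 55.1 ± 7.06 CPM in male mutant CVS and 54.2 ± 4.31 CPM in male mutant NS mice, and 54.6 ± 5.89 CPM in male control CVS and 53.7 ± 3.01 CPM in male control NS mice (SD). In females it averaged 48.6 ± 4.08 CPM in mutant CVS and 47.8 ± 4.04 CPM in mutant NS mice, and 57.0 ± 4.68 CPM in control CVS and 52.7 ± 3.08 CPM in control NS mice. The pooled CVS minus NS value was 0.048 ± 0.0395 (edgeR adjusted p 0.769), with an interval of −0.030 to 0.13, and 0.082 without the 3 libraries rich in olfactory bulb markers. The groups overlapped in each sex and genotype.

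By genotype, Ache values were lower in female mutants without passing the test. Under CVS they were 42.0, 48.0, 49.0, 51.2 and 52.6 CPM in female mutants, against 50.2, 54.8, 58.0, 60.1 and 62.0 CPM in female controls. The groups overlapped only through 1 control library that lay below 2 mutants. Without stress they were 42.5, 45.6, 48.2, 49.2 and 53.3 CPM in female mutants, against 49.6, 50.6, 51.5, 54.8 and 56.9 CPM in female controls, with 4 of 5 mutants below every control. The log2 fold changes of mutant minus control were −0.23 ± 0.0628 under CVS (edgeR adjusted p 0.436) and −0.14 ± 0.0631 without stress (adjusted p 0.545). In males they were 0.016 ± 0.0791 under CVS and 0.014 ± 0.0897 without stress. The difference of the genotype effect, female minus male, was −0.20 ± 0.0788 (adjusted p 0.509) and did not pass. Without the 3 libraries rich in olfactory bulb markers it was −0.13.

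Lynx1 lies on chromosome 15 (GRCm38, chr15:74747852-74753046, minus strand). By genotype it had the smallest adjusted p of the 8 genes other than Colq in the pooled comparison, and it did not pass. Under CVS it stood at 314.0, 314.8, 326.7, 331.8 and 361.3 CPM in female mutants, against 365.4, 372.5, 377.8, 380.7 and 405.4 CPM in female controls. These groups did not overlap. The share of all tested genes that separate in this way was not counted, so nothing is read from it. Without stress Lynx1 stood at 297.5, 315.4, 326.1, 343.6 and 358.4 CPM in female mutants, against 328.8, 363.3, 365.3, 397.0 and 420.1 CPM in female controls, and here the groups overlapped through 1 control library.

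In males under CVS, Lynx1 stood at 319.8, 337.9, 343.6 and 382.2 CPM in mutants, against a lowest of 338.5, a median of 367.9 and a highest of 487.0 CPM in the 6 controls. In unstressed males it stood at 361.7, 378.5 and 424.0 CPM in mutants, against 371.1, 382.1, 382.4, 386.6 and 398.0 CPM in controls. The unstressed groups overlapped widely, and in the stressed ones 2 of 4 mutants lay below every control. Mutant minus control was −0.21 ± 0.0552 in stressed and −0.19 ± 0.0552 in unstressed females (edgeR adjusted p 0.442 and 0.240), and −0.17 ± 0.0887 in stressed and 0.015 ± 0.0998 in unstressed males (adjusted p 0.697 and 0.994).

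Pooled over sexes and stress, Lynx1 was at −0.14 ± 0.0401, a change of −9.09% (edgeR adjusted p 0.0962, interval −0.22 to −0.059). DESeq2 gave an adjusted p of 0.0222 and limma voom 0.0471, so the call turned on the tool. The genotype effect, female minus male, was −0.13 ± 0.0799 (edgeR adjusted p 0.736), and −0.056 without the 3 libraries rich in olfactory bulb markers.

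Markers of several cell types also had values of 1 sign in the pooled genotype comparison. All 6 oligodendrocyte markers were negative (median −0.16), with sums of 961 to 1743 CPM in mutant and 1033 to 1821 CPM in control groups. All 6 astrocyte markers were negative (median −0.071), with sums of 3772 to 4657 CPM in mutant and 3932 to 4954 CPM in control groups, and 1 of them passed. Microglia and endothelial and pericyte markers were negative in 6 of 6 each (medians −0.055 and −0.077). Microglia sums were 254 to 327 CPM in mutant and 272 to 359 CPM in control groups. Endothelial and pericyte sums were 248 to 314 CPM in mutant and 250 to 346 CPM in control males. In females they were 116 to 184 CPM in mutants and 132 to 206 CPM in controls. The 6 meningeal fibroblast markers were positive (median 0.12), with sums of 32.6 to 103.1 CPM in mutant and 32.2 to 81.9 CPM in control groups. Signs differed in stressed females alone, where 5 of 6 meningeal markers were negative (median −0.16) and 3 of 6 astrocyte markers (median 0.0019). There oligodendrocyte markers were negative in 6 of 6 (median −0.051), and microglia and endothelial and pericyte markers in 5 of 6 each. Apart from the astrocyte marker none of these passed, and their part in the values of Lynx1 and Ache was not tested.

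**Figure D3:**
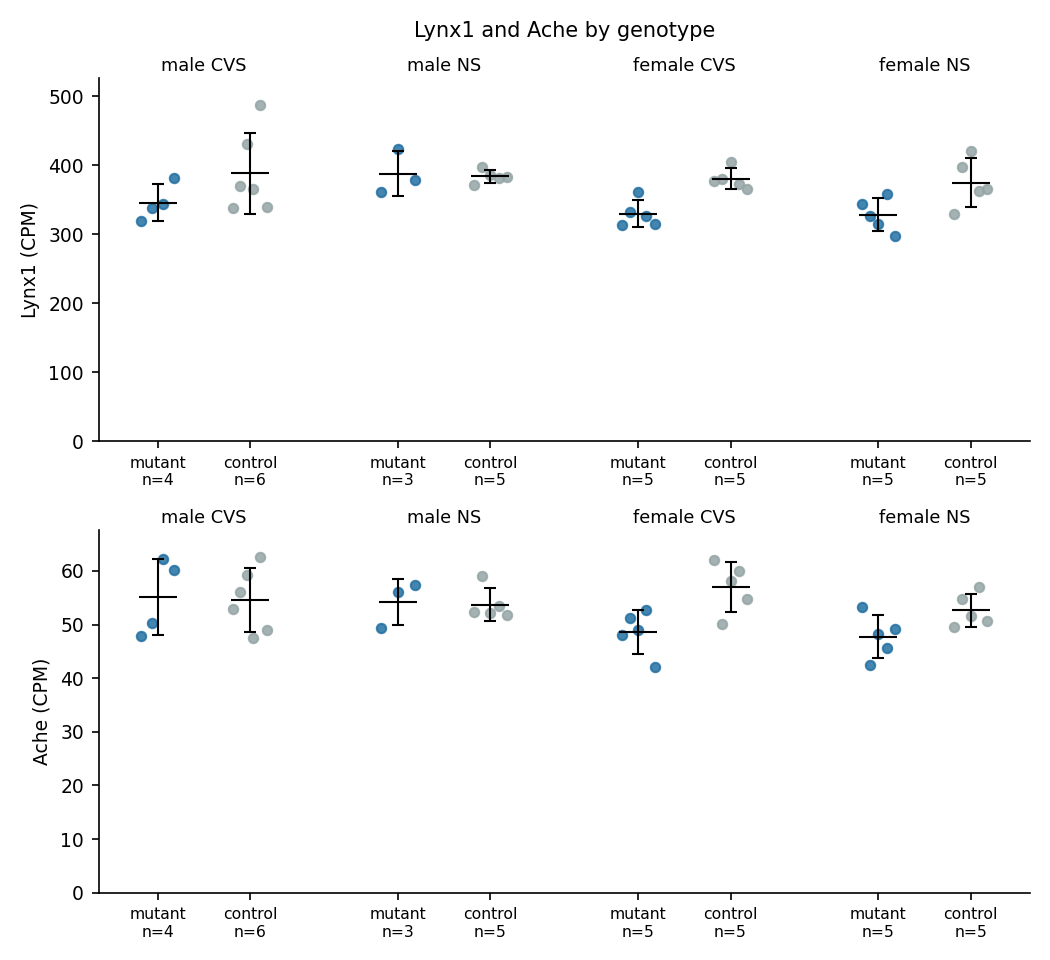
Lynx1 and Ache levels (CPM, linear axes from 0) in each library, with mutants in blue and controls in grey for each sex and stress group; bars are the mean and SD. Stressed female mutants lie below all stressed female controls in Lynx1, with means of 329.7 and 380.4 CPM, while male groups overlap for both genes. The share of all genes that separate in this way was not counted.

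None of the 3 muscarinic receptors passed the test for stress or for genotype. Chrm1 ranged from 214.9 to 265.9 CPM over all 38 libraries, Chrm3 from 60.2 to 85.3 CPM and Chrm2 from 7.83 to 18.2 CPM. Pooled stress values were 0.039 ± 0.0231 for Chrm1, −0.0091 ± 0.0339 for Chrm3 and −0.038 ± 0.0654 for Chrm2 (edgeR adjusted p 0.630, 0.964 and 0.907). Pooled genotype values were −0.0046 ± 0.0231, −0.035 ± 0.0339 and 0.047 ± 0.0654 (adjusted p 0.974, 0.799 and 0.879). Chrm1 had the narrowest interval of the set, −0.0066 to 0.084 for stress. In female controls Chrm3 averaged 67.7 ± 5.56 CPM after CVS and 73.9 ± 4.30 CPM without it, a value of −0.13 ± 0.0581 that did not pass (adjusted p 0.539).

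Chrna4 and Chrnb2, the partner subunits of the α4β2 receptor, were measured at nearly equal RPKM, and their levels correlated across libraries with r of 0.545 in 20 females and 0.423 in 18 males. Such values were not particular to this pair. Ache and Lynx1 had 0.574 in females and 0.613 in males, and Chrm2 and Chrna4 0.509 and 0.575. The promoters of Chrna4 and Chrnb2 are shown because of their matched RPKM. They run from 250 bases before to 50 bases after the RefSeq start of transcription (GRCm38.p6, both genes on the minus strand, chr2:181039128-181039427 and chr3:89764583-89764882). Capitals mark GC boxes, the letters GGGCGG or their reverse complement.
Chrna4: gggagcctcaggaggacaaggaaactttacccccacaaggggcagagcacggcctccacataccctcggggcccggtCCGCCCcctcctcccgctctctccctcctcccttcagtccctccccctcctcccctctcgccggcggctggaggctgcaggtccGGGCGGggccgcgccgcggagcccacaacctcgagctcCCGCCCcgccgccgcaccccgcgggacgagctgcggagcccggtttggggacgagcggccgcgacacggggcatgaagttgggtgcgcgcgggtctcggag
Chrnb2: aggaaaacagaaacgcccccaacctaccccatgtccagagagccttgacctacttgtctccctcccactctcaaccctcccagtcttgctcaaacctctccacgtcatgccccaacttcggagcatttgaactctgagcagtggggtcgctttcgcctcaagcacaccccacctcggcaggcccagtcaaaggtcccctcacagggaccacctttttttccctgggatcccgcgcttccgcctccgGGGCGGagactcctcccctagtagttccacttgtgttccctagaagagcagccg
Both windows hold the GC box, 3 times in Chrna4 and 1 time in Chrnb2, as do 35.7% of 32851 mouse promoters of that length. Their GC content was 74.3% for Chrna4 and 59.0% for Chrnb2, against a median of 52.7% over all promoters. Neither window holds the N-box CCGGAA (14.9% of promoters), the cAMP response element TGACGTCA (1.8%) or the glucocorticoid receptor half-site AGAACA (19.0%) on either strand. The E-box CANNTG (72.3% of promoters) has 0 matches in Chrna4 and 2 in Chrnb2. Among the other members with an entry, Ache holds 4 GC boxes, Chrm2 and Chrna7 1 each and Chrm3 0.

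Under stress the nicotinic subunits gave small and mixed values. Chrna4 stood at −0.0050 ± 0.0446, Chrnb2 at 0.034 ± 0.0289 and Chrna7 at −0.078 ± 0.0532 in the pooled stress comparison (edgeR adjusted p 0.985, 0.771 and 0.698). In female controls Chrna4 averaged 34.5 ± 2.79 CPM after CVS and 30.9 ± 2.24 CPM without it, and Chrnb2 58.6 ± 4.39 and 54.1 ± 2.12 CPM (0.16 ± 0.0682 and 0.11 ± 0.0542, adjusted p 0.516 and 0.554). In female mutants Chrna4 averaged 33.1 ± 3.05 CPM after CVS and 34.4 ± 2.91 CPM without it, and Chrnb2 53.9 ± 4.15 and 56.3 ± 2.55 CPM. The female interaction was −0.22 ± 0.0964 for Chrna4 and −0.18 ± 0.0768 for Chrnb2, and neither passed (adjusted p 1.00 each).

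Chrna7 stood at 7.72, 8.67, 9.59, 10.7 and 11.1 CPM in stressed female mutants, against 10.2, 10.9, 11.2, 11.9 and 13.0 CPM in unstressed ones. These groups overlapped, with 3 of 5 stressed libraries below every unstressed one. The value was −0.26 ± 0.101 (edgeR adjusted p 0.502). Its stress effect, female minus male, was −0.22 ± 0.106 (adjusted p 0.684). By genotype, pooled values were 0.094 ± 0.0446 for Chrna4, 0.081 ± 0.0532 for Chrna7 and 0.022 ± 0.0289 for Chrnb2, and none passed (adjusted p 0.413, 0.629 and 0.867). Chrnb2 shares 1365 exonic bases (16.3%) with Adar on the opposite strand. The sources used here do not give the strand setting of counting, and reads of Chrnb2 and Adar may be mixed in this stretch. The pooled stress value of Adar was −0.048 (adjusted p 0.653).

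**Figure D4:**
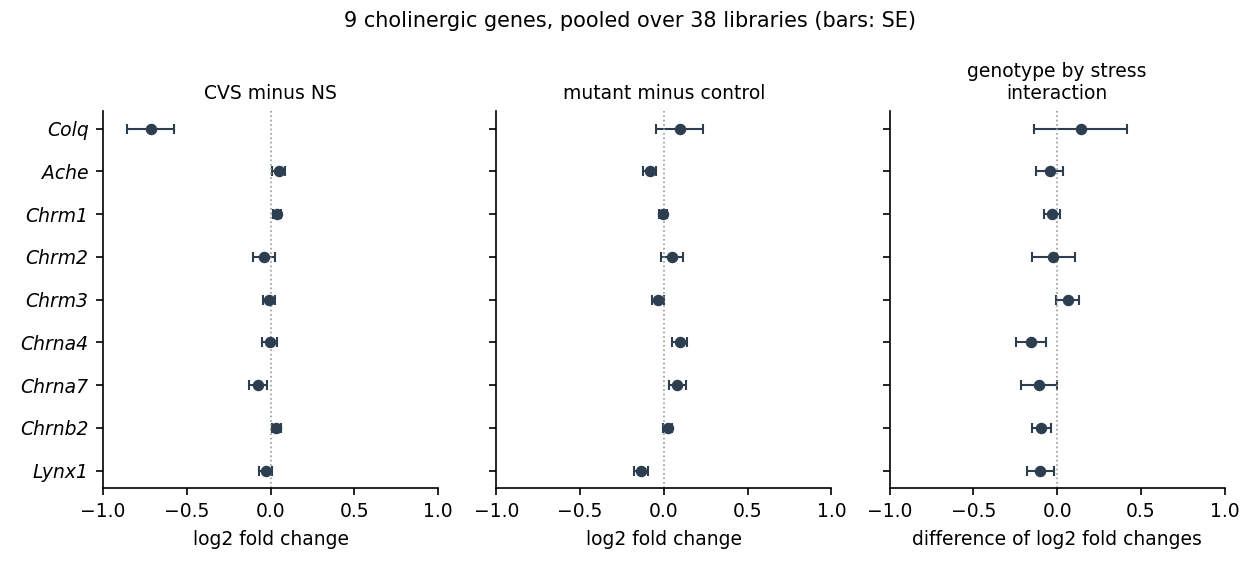
Log2 fold changes of the 9 genes with standard errors, pooled over 38 libraries, for CVS minus NS, mutant minus control and their interaction. Colq lies at −0.72 for stress, while the other 8 genes lie between −0.078 and 0.048.

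Over all 15 comparisons, none of the 8 genes other than Colq passed edgeR's quasi-likelihood test. For stress, the shares of all tested genes that passed were 0% in male mutants, 0.0116% in male controls, 0% in female mutants and 0% in female controls. For genotype they were 0.0523% in stressed and 0.0174% in unstressed males, 0.0243% in stressed and 0.128% in unstressed females, and 1.09% pooled. The interaction called 0% in males, 0% in females and 0% pooled. The difference between the sexes called 0% for stress and 0.00566% for genotype. A count of 0 among 8 genes is near this background and is no statement about the set. In the pooled comparisons, 1 member had an unadjusted p under 0.05 for stress (Colq itself), where 1655 of all 17671 genes did, and 3 for genotype (Ache, Chrna4 and Lynx1), where 1981 did. Without Colq, which was chosen on this contrast, the median for stress was −0.0070, against 0.0028 over all genes tested. For genotype the median over all 9 was 0.022, against −9.4e-05.

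The wider cholinergic system was covered by 45 further genes, of which 33 were tested in the pooled fit. For stress, 0 passed in either direction, against 0.0170% of all genes, and for genotype 1 was higher and 1 lower, against 1.09% of all genes. Lypd1, a tethered modulator that reduces nicotinic currents, rose in mutants by 0.23 ± 0.0472, a change of 17.1% (edgeR adjusted p 0.00872). It averaged 152.3 ± 10.2 CPM in mutant and 116.5 ± 6.49 CPM in control males under CVS, and 146.1 ± 18.1 and 114.8 ± 17.1 CPM without stress (SD). In females it averaged 158.8 ± 18.7 CPM in mutants and 152.2 ± 17.6 CPM in controls under CVS, and 147.8 ± 14.7 and 136.7 ± 7.85 CPM without stress. Without the 3 libraries rich in olfactory bulb markers the value was 0.20 and did not pass (adjusted p 0.101).

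Chrnb3, the β3 nicotinic subunit, fell in mutants by 0.47 on the log2 scale with a standard error of 0.125 (edgeR adjusted p 0.0465), at 13 to 65 counts per library. It averaged 1.49 ± 0.161 CPM in mutant and 1.98 ± 0.341 CPM in control females under CVS, and 1.10 ± 0.493 and 1.87 ± 0.643 CPM without stress. In males the means were 1.52 ± 0.354 CPM in mutants and 2.08 ± 0.503 CPM in controls under CVS, and 1.44 ± 0.575 and 1.72 ± 0.259 CPM without stress. The call held in 11 of 38 runs that each left out 1 library, and without the 3 libraries rich in olfactory bulb markers the value was −0.34 (adjusted p 0.396).

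The other acetylcholinesterase anchor and the second cholinesterase gave larger but imprecise stress values. Prima1, which encodes the membrane anchor of the brain enzyme, had a pooled stress value of 0.52 ± 0.181 (edgeR adjusted p 0.357), opposite in sign to Colq, at 3 to 36 counts per library. It averaged 0.815 ± 0.129 CPM in CVS and 0.618 ± 0.203 CPM in NS male mutants, and 0.831 ± 0.109 CPM in CVS and 0.413 ± 0.261 CPM in NS female mutants (SD). In controls it averaged 0.916 ± 0.188 CPM in CVS and 0.685 ± 0.0939 CPM in NS males, and 0.757 ± 0.482 CPM in CVS and 0.633 ± 0.162 CPM in NS females. Bche, butyrylcholinesterase, had −0.51 ± 0.185 (adjusted p 0.404). It averaged 2.99 ± 1.06 CPM in CVS and 7.35 ± 2.49 CPM in NS female mutants, the widest of its group differences. The stress value of Bche was −1.31 there, against −0.31 in female controls, −0.23 in male mutants and −0.19 in male controls. Its pooled value thus rests largely on female mutants. Neither gene passed.

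Genes that define cholinergic neurons were near the floor of detection. Chat, the enzyme that makes acetylcholine, had 2 to 15 counts per library, Slc18a3, its vesicular transporter, 0 to 16, and Slc5a7, the choline transporter, 10 to 38. Their pooled stress values were 0.13 ± 0.242, 0.32 ± 0.287 and −0.18 ± 0.124 (edgeR adjusted p 0.916, 0.794 and 0.699). Chrm4 stood at −0.026 ± 0.0612 (adjusted p 0.936). Of the muscle-type subunits, Chrnd and Chrng had 0 counts in all 38 libraries and Chrne had 0 to 4 per library. Chrna1 had 2 to 14 and Chrnb1 1 to 18 counts per library. Of 7 listed genes of the extracellular matrix and the endplate, all were tested in the pooled fit and 5 in the fit of each sex. Of these 0 passed, and not all of them encode proteins that bind ColQ. Perlecan (Hspg2), to which ColQ binds, stood at −0.10 ± 0.0829 and Dag1, dystroglycan, at −0.063 ± 0.0207 (edgeR adjusted p 0.760 and 0.323).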

How the data were processed

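The authors deposited unnormalized whole-number counts for each gene in 38 libraries, 1 per mouse. Per the labels' protocols, mRNA was isolated from 400 ng of RNA of 1 mm coronal sections, made into libraries with a directional kit and sequenced as 150-bp paired reads. Per the submitters' processing notes, fastp 0.23.2, STAR 2.7.10b, featureCounts and GRCm39 were used. Annotation release and strand setting: not given in the sources used here. Symbols (52029 of 57010 IDs), exon lengths and positions came from GENCODE vM21 on GRCm38 and were used for names, RPKM and overlaps only.

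Counts were fitted with edgeR 4.0.16 in R 4.3.3: TMM, filterByExpr (minimum count 10, minimum total 15), robust quasi-likelihood, 4 groups per sex (16435 genes in females, 17212 in males) and 8 groups over all libraries (17671 genes), whose contrasts average the groups. P values were adjusted over all tested genes by Benjamini-Hochberg with a threshold of 0.05. Standard errors were derived from the F statistic (log2 fold change over the square root of F), and 95% intervals are normal ones. CPM used the TMM factors of each sex. Alternatives were DESeq2 1.42.0, limma voom 3.58.1, other scalings and filters, fits of the compared groups alone and libraries left out; 3 marker covariates were chosen after seeing the data. The code was tested on simulated data. Figures used Python 3.11.15 and matplotlib 3.10.9. Promoter sequences came from RefSeq; 6 of 9 members matched, and Colq, Chrm1 and Lynx1 did not.

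The members and lists were chosen with earlier results of these data known. Named genes were all members, every other listed cholinergic, matrix or endplate gene past the threshold, and Chat, Slc18a3, Slc5a7, Prima1, Bche and Chrm4. Overlapping genes, neighbours and the 5 genes most like Colq (mean CPM of at least 1) were also named. Hspg2, Dag1, Chrna1, Chrnb1, Chrnd, Chrne, Chrng and Chrm5 were named after their values were seen. Of 74 replicate pairs 0 were identical, with chi-square per degree of freedom of 3.495 to 15.22. Separate animals per library rest on the labels.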

Additional observations from a re-analysis of the deposited data

Results flagged for a closer look

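Of 63 groups of a member gene with 4 to 6 libraries, 3 held a library far from the others, and chance flags about 1 in 20. Ache was at 58.98 CPM in male control NS replicate 2, against 51.7 to 53.4 CPM in the other 4 libraries of that group. Chrm1 was at 224.7 CPM in female mutant NS replicate 2, against 241.9 to 247.8 CPM in the other 4. Chrna7 was at 11.2 CPM in male control CVS replicate 5, against 9.05 to 9.50 CPM in the other 5.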

How the results depend on the processing

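No paired analysis was possible because the labels give no replicate numbers shared between groups. Of 2170 values of single genes under alternatives, 2048 were counted as unchanged. For most values this meant the same direction and side of the threshold. For the stress values of Colq it meant the same direction and a shift of less than 1 standard error, whatever the side of the threshold. The number of members called in the pooled stress comparison was 1 in the fit reported; it was 0 with DESeq2 (which gave Colq no adjusted p, with 35 genes called), 0 with limma voom and 0 with the meningeal covariate. It ranged from 0 to 1 when single libraries were left out. The member counted is Colq, which was chosen on this contrast, so these counts are no test of it. The pooled genotype count was 0, and 1 (Lynx1) with DESeq2 and 1 with limma voom. With no filter the female genotype count was 1 (Lynx1) without stress and 2 (Ache and Lynx1) under CVS; without stress it ranged from 0 to 1 over the runs that left out a library (1 without female control NS replicate 1). The cause was not tested.

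Directions turned as follows (log2). Without the 3 libraries rich in olfactory bulb markers, unstressed male mutant minus control became 0.63 for Colq, −0.087 for Lynx1, −0.12 for Ache and −0.049 for Chrnb2. The Colq interaction became −0.39 in males and −0.15 pooled, and its genotype effect, female minus male, −0.30. The pooled values became 0.024 for Chrna4 and 0.0035 for Lynx1 (stress), −0.010 for Chrnb2 (genotype) and 0.020 for Ache (interaction). Without the library of doubtful genotype they became 0.014 for Chrna4 (stress) and 0.038 for Chrm2 (interaction). With limma voom, Colq became −0.0060 in unstressed females by genotype and −0.033 for the sex difference in stress; with raw totals that difference was −0.021 and Chrm1 by genotype 0.0076. With the meningeal covariate Chrm3 became 0.012 for stress.

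Over runs that left out 1 library, values crossed 0 within these ranges. Colq ran from −0.034 to 0.15 for pooled genotype, −0.56 to 0.17 and −0.12 to 0.26 for genotype in unstressed males and females, −0.019 to 0.71 and −0.073 to 0.31 for the male and female interaction, −0.25 to 0.11 for the sex difference in stress and −0.025 to 0.34 for that in genotype. Ache ran from −0.048 to 0.079 in stressed and −0.028 to 0.081 in unstressed males and Lynx1 from −0.054 to 0.067 in unstressed males, all by genotype. Pooled values ran from −0.018 to 0.0067 for Chrm1 by genotype, −0.10 to 0.038 for the Chrm2 interaction, −0.019 to 0.0011 for Chrm3 and −0.026 to 0.014 for Chrna4 under stress. Chrnb3 lost its genotype call with raw totals (adjusted p 0.0545).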
